A study of Mus musculus with 2 samples.

Results

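The genes described here are 43 interferon-stimulated genes, chosen by symbol as a list of genes that type I interferon is known to induce. Of these, 42 were rows of both count tables, among 31253 genes in all, and Mx2 was not analysed here. The cells were CD45+ cells, that is cells carrying the surface protein of white blood cells, taken from the brains of C57BL/6 mice that had received cells of the mouse glioma line GL261 into the brain. One library came from mice given PBS by gavage and one from mice given ibudilast, an inhibitor of phosphodiesterases and of the cytokine MIF, at 20 mg per kg by the same route, 5 times a week for 2 weeks. The control library is labelled untreated, while the protocol gives PBS. The sources used here do not give the number of mice behind a library. Each group is therefore 1 library, so no difference below has a replicate check and none carries a p-value. Intervals in brackets are 95% intervals for counting error alone, and molecules of the same cell are not independent of each other.

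Type I interferons are released when a cell senses foreign or misplaced nucleic acid. They bind a receptor made of Ifnar1 and Ifnar2, whose kinases activate a complex holding Stat2 and Irf9 that binds a DNA element called ISRE upstream of target genes. In gliomas, tumour macrophages and infiltrating monocytes are among the cells in which these targets are commonly seen. Interferon-gamma, made by T and NK cells, signals through another receptor and an element called GAS, and many genes answer to both.

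The members fall into 10 groups by what their proteins do, and several of these groups are runs of neighbouring genes. The 4 IFIT genes, whose proteins bind viral RNA and block its translation, lie on chromosome 19 between 34550694 and 34650009 (GRCm38, GENCODE M21), a stretch of 99.3 kb. The 7 p200 genes, which encode sensors and regulators that bind DNA, lie on chromosome 1 between 173566283 and 174031810. The pair Parp9 and Dtx3l, which form a complex that marks proteins with ubiquitin, lies with Parp14 on chromosome 16 between 35832874 and 35972605. The 6 genes of the OAS family, whose active members make the messenger that switches on RNase L, are on chromosome 5. Isg15, the ubiquitin-like protein that is attached to other proteins, lies on chromosome 4 between 156199424 and 156200818. The other groups are the modifiers of Isg15 (Usp18 and Herc6), the sensors of RNA and Z-form nucleic acid, the TRIM30 pair, the PHF11 pair, Stat2, and 9 analysed effectors with other functions. Reads of near-identical neighbours (Ifit3 and Ifit3b, Oas1a and Oas1g, the p200 genes, Trim30a and Trim30c, Phf11b and Phf11d) may be split between copies by the counting, so single values for these are less certain than the sum of their group.

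The 5 promoters printed here carry the ISRE core and come from genes more than 25% higher with ibudilast in the macrophage-like class (Isg15, Ifit1 and Ifit3) and from the OAS and p200 groups, whose sums were nearly equal in that class (Oas3 and Ifi211). They were picked after the values were seen. Each run is the 250 bases before the RefSeq start (GRCm38.p6) on the gene's own strand. Capitals mark matches to the ISRE core GAAANNGAAA on either strand.
Isg15 (chr4:156200819-156201068, minus strand): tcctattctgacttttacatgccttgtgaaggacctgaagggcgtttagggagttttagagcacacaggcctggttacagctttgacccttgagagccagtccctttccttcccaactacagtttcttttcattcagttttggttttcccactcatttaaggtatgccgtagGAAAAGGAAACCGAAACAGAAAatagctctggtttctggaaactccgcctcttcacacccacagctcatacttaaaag
Ifit1 (chr19:34640639-34640888, plus strand): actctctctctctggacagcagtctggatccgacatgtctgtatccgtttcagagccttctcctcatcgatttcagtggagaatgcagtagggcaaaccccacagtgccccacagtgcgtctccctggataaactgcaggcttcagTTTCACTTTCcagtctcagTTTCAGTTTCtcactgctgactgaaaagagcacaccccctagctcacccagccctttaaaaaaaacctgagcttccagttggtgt
Ifit3 (chr19:34583279-34583528, plus strand): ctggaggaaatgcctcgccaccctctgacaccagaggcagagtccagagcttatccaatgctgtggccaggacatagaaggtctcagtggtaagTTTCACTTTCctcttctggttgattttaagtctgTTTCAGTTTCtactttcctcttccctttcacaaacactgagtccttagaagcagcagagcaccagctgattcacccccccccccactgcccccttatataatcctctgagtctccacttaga
Oas3 (chr5:120777660-120777909, minus strand): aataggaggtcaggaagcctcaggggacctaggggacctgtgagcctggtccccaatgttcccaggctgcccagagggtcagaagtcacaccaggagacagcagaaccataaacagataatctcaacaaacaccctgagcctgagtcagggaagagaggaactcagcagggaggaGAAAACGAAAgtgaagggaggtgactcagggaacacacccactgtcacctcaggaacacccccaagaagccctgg
Ifi211 (chr1:173913047-173913296, minus strand): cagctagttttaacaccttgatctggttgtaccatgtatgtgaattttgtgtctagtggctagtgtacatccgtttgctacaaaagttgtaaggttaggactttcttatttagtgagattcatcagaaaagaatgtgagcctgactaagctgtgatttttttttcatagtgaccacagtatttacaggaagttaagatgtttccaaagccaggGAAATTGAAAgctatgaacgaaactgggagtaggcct

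In the Isg15 promoter 3 overlapping matches run together, the nearest starting 66 bases before the start and the farthest 78 bases. Ifit1 and Ifit3 each hold 2 separate matches, read on the opposite strand. Oas3 and Ifi211 each hold 1 match, at 75 and 37 bases. Promoters were matched for 33 members, and 17 of them (51.5%) held the ISRE core in these 250 bases, against 3.46% of 27025 genes and 2.98% of 32851 promoters of the same length. The core was found in 3 of 4 IFIT genes, in 3 of 5 OAS genes and in 5 of 6 p200 genes with a matched promoter, but in 0 of 3 sensors, 0 of 1 PARP and DTX3L genes and 2 of 7 other effectors. Isg20, one of the last group, held no core in any of its 3 RefSeq promoters. The GAS letters TTCNNNGAA were found in 6 members (18.2%), against 8.13% of all genes. Both elements were searched on both strands, and a match is a description of letters, not a measured binding site.

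The 2 libraries held 8968 and 8483 barcodes (PBS first, here and below) with 119113794 and 82196922 UMIs, that is counted transcript molecules. After filters on genes, UMIs and mitochondrial share, and with the 6% of barcodes most like doublets left out, 7666 and 6654 cells remained, with a median of 11659.5 and 7857 UMIs. More barcodes of the ibudilast library failed on mitochondrial share (8.93% and 15.6%), and 19 barcode sequences occurred in both libraries. Cells were put into classes by 13 marker panels that contain no member. Of the kept cells, 58.8% and 38.6% were macrophage-like, 7.71% and 12.3% monocyte-like, 9.12% and 13.2% T-cell-like, and 2.41% and 5.76% NK-cell-like. All 8 macrophage, all 8 monocyte, all 6 T-cell and all 7 NK-cell markers were detected in the class they name. The classes were made with these markers, so their detection is no separate check. Macrophage-like cells of the PBS library also held a UMI of all 6 T-cell and all 7 NK-cell markers. Of these, 4 and 1 were at 20 CPM or more. Many barcodes carried RNA of a second type: C1qa, a complement gene of macrophages, was at 8019 and 7406 CPM (UMIs scaled to the same total in every class and library) in macrophage-like cells but also at 1020 and 811.1 CPM in T-cell-like cells and at 545.6 and 480.8 CPM in NK-cell-like cells.

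The level of the interferon-stimulated genes differed more between cell classes than between the libraries. Their summed level in the PBS library ran from 2995 CPM in mast-cell- or basophil-like cells to 40620 CPM in the 48 neutrophil-like cells. Monocyte-like cells came next with 25260 CPM, then cells between monocyte and macrophage with 18370 CPM, while macrophage-like cells held 8815 CPM. The level was thus lower at each step from monocyte-like over intermediate to macrophage-like cells. The bottom of the order was held in both libraries by mast-cell- or basophil-like, NK-cell-like and B-cell-like cells. In the PBS library microglia-like (6978 CPM), cDC1-like (7098 CPM) and migratory dendritic-cell-like cells (6926 CPM) had overlapping counting intervals, as did T-cell-like (9539 CPM) and cDC2-like cells (9383 CPM). Since each library gives 1 value per class, the spread between mice is unknown for every step of this order.

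**Figure D1:**
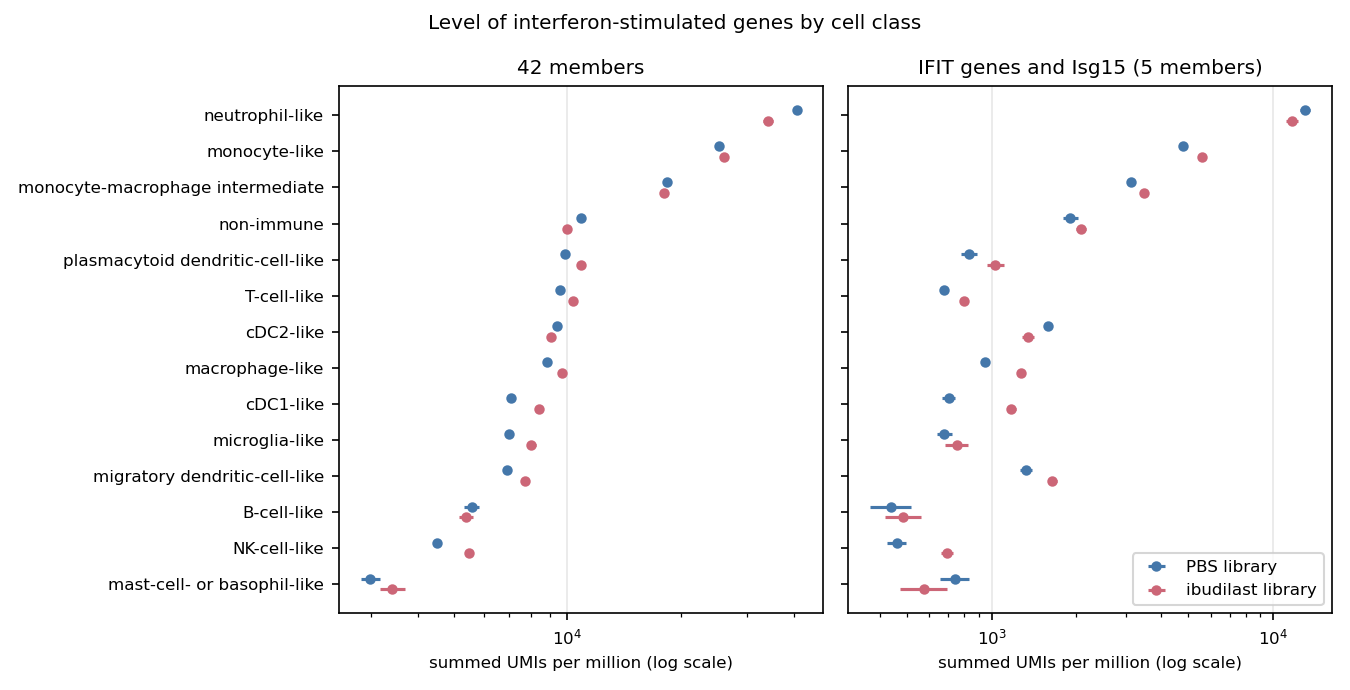
Summed level of the 42 members (left) and of the IFIT genes with Isg15 (right) in each cell class, in CPM on a log scale, with bars for 95% counting intervals; blue is the PBS and red the ibudilast library. The 2 points of a class lie close together compared with the distance from mast-cell- or basophil-like cells (2995 CPM, PBS) to neutrophil-like cells (40620 CPM, PBS).

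Classes also differed in which members made up their sum. In macrophage-like cells of the PBS library Ifi27l2a, which encodes a small membrane protein, gave 20.9% of the members' UMIs and Bst2, the tether that holds budding viruses at the cell surface, gave 16.1%. In T-cell-like cells Ifi27l2a alone gave 50.4% and 52.3%. In neutrophil-like cells the leading member was Rsad2 (viperin, which makes a chain-ending nucleotide) with 23.0% in the PBS library, and Isg15 with 16.9% in the ibudilast library. A sum over all members therefore follows 1 or 2 genes in some classes, and the groups are given one by one below.

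Over all kept cells the members summed to 9724 and 11410 CPM, a ratio of ibudilast to PBS of 1.17 (1.17 to 1.18). Within the 11 classes that had at least 50 cells in each library, the ratio was above 1 in 8 and ran from 0.961 in cDC2-like to 1.22 in NK-cell-like cells. In the monocyte-like class it was 1.03 and in the macrophage-like class 1.10 (1.09 to 1.10). A larger share of monocyte-like cells, which hold more of these transcripts, stood beside the higher pooled ratio. Of the members, 10 of 42 were higher and 1 lower in the pooled cells, where 25.3% of all genes were higher by the rule given below and 6.8% lower. The share of the pooled difference that goes with cell composition was not tested.

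Macrophage-like cells, the largest class with 4508 and 2569 cells, had more transcripts of Isg15, of the IFIT genes and of Isg20 in the ibudilast library, while the OAS, p200, TRIM30 and PHF11 groups were at nearly the same level. Isg15 was at 469.9 and 655.9 CPM, a ratio of 1.40 (1.37 to 1.42). Ifit1 was at 81.89 and 120.6 CPM, a ratio of 1.47 (1.41 to 1.54). Ifit3 was at 192.5 and 257.3 CPM, a ratio of 1.34 (1.30 to 1.37). The largest ratio among the 42 in this class was that of Isg20, an exonuclease that degrades viral RNA, at 62.78 and 96.13 CPM (1.53, interval 1.46 to 1.60). Isg20 ranked 5 among the members by UMIs in T-cell-like cells of both libraries. The T-cell panel stood at 138.7 and 300.5 CPM in macrophage-like cells, and its part in the Isg20 ratio was not tested. Ifit3b (1.34) and Samd9l (1.27), a restriction factor of poxviruses, were the other members more than 25% higher.

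A gene was counted as higher when its ratio was more than 25% above 1, and as lower under 0.8-fold, provided it had at least 20 UMIs over both libraries. By this rule 6 of 42 members were higher and 0 lower in macrophage-like cells, where 17.0% of 13549 genes were higher and 5.96% lower. The members' share of higher genes was thus near that of all genes, and with classes taken from clusters 10 were higher. Shares of all genes were computed for the main setting only, so member counts under other settings, here and below, stand without one. The members' median log2 ratio was 0.10, beside 0.05 over all genes tested. The groups within the list differed from each other. Of the IFIT genes 3 of 4 were higher, and the fourth, Ifit2, was at 164.6 and 188.8 CPM (1.15). None of the 6 OAS, 7 p200, 5 sensor, 3 PARP and DTX3L, 2 TRIM30 or 2 PHF11 genes was past either threshold.

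The sums of the groups showed the same contrast. The IFIT genes summed to 476.9 and 617.6 CPM, a ratio of 1.30 (1.27 to 1.32). The OAS genes summed to 459.7 and 465.3 CPM (1.01, interval 0.992 to 1.03). The p200 genes summed to 1620 and 1621 CPM (1.001, interval 0.990 to 1.01). Groups with similar levels in the PBS library thus had different ratios, and Oas3, whose promoter is printed above, was at 65.05 and 65.04 CPM. Among the modifiers of Isg15, Usp18, the protease that removes it from proteins, was at 100.3 and 125.3 CPM, a ratio of 1.249 just short of the threshold. Herc6, the mouse ligase that attaches it, had a ratio of 1.18. The RNA sensor Ifih1 (MDA5) was at 88.98 and 88.25 CPM, and Zbp1, the sensor of Z-form nucleic acid that can start necroptosis, at 271.3 and 304.4 CPM.

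The remaining members of the macrophage-like class did not differ as a block. Ifi27l2a was at 1846 and 2185 CPM (1.18), whereas Bst2 was at 1416 and 1391 CPM (0.982). Rsad2 was at 136.0 and 147.4 CPM (1.08), Oasl2 at 183.4 and 206.1 CPM (1.12) and Stat2, a part of the ISRE-binding complex, at 104.5 and 111.2 CPM (1.06). The lowest ratios were those of Ifi44, at 93.32 and 74.92 CPM (0.803), and Oasl1, which limits translation of Irf7, at 124.4 and 110.0 CPM (0.884). Of all 42 members, 25 had a ratio above 1.

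**Figure D2:**
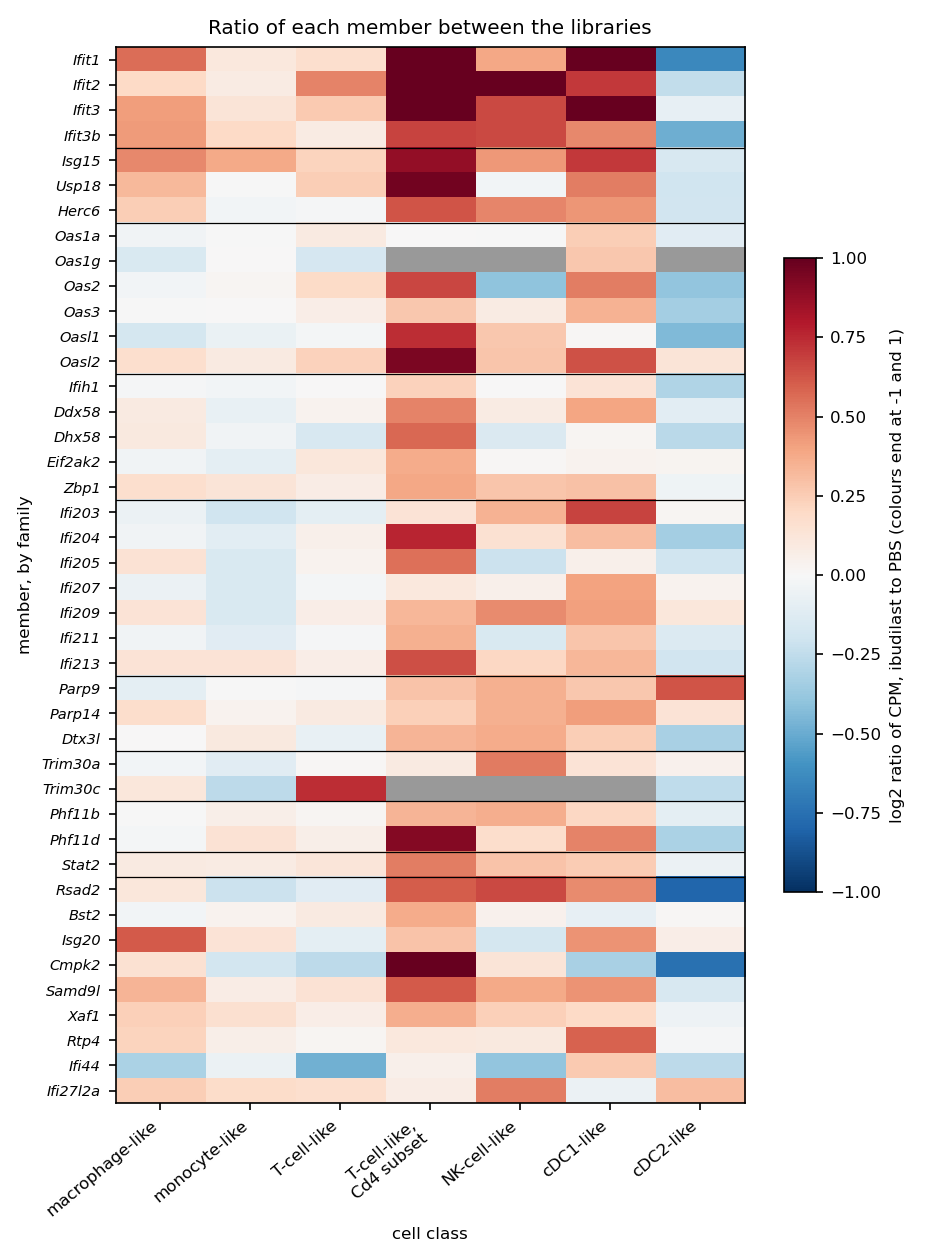
Log2 ratio of CPM (ibudilast to PBS) of each member, rows ordered by group, in 7 cell classes or subsets; red is above and blue below 0, colours end at -1 and 1, and grey marks fewer than 20 UMIs. The IFIT rows and Isg15 are red in every column but cDC2-like, while the OAS and p200 rows are pale in the macrophage-like and monocyte-like columns.

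For the question of whether a few cells carry the difference, Isg15 and the 4 IFIT genes were added up per cell. This combination was chosen after their values were seen. In macrophage-like cells the sum was at 946.8 and 1274 CPM, a ratio of 1.35 (1.33 to 1.36). Because cells of the PBS library held more UMIs (median 14211.5 and 9479), each cell was thinned to 2000 UMIs, which left out 228 and 283 shallower cells. The mean was then 2.15 and 3.02 UMIs per cell and the median 1 and 2.

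Thinned cells without any UMI of these 5 genes made up 33.8% and 26.2% of the macrophage-like class. Before thinning the shares were 6.74% and 9.62%, in the opposite order, with the deeper library showing fewer empty cells. No class here is known to lack these genes, so a share that free RNA alone would give could not be set beside them. At the other end, 4.44% (3.84 to 5.10) of PBS and 8.36% (7.25 to 9.57) of ibudilast cells held more than 8 UMIs, the 95th percentile of the PBS library. These were 190 and 191 cells. Of all thinned cells of the class, 99 and 86 held exactly the limit or 1 UMI more, so the limit does not fall in a gap. Counts of a few UMIs per cell cannot tell a range of levels from a separate type. The cells above the limit had fewer UMIs than the other cells, with medians of 9794 and 6872 against 15088.5 and 11253.

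Both ends of the distribution thus differed between the libraries. When the cells of each library were ranked and cut into 10 equal bins, the mean of the highest bin was 10.0 and 13.5 UMIs, a ratio of 1.35. Bin 9 had means of 4.13 and 5.86 UMIs (1.42), and bin 6 had 1.14 and 2.00 UMIs (1.76). The top 10% of cells accounted for 40.3% of the difference between the library means. Had every bin differed by the same fold, that share would equal the share of UMIs the top bin holds, which was 46.4% in the PBS library. The cells below the median gave 9.85% of the difference. The difference in macrophage-like cells was therefore spread over the upper bins and was not held by a few cells alone. Its fold was smaller in the highest bin than in bins 9 and 6. Bin 6 lies next to the median, which stepped from 1 to 2 whole UMIs, so its fold is coarse.

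Single genes showed the same pattern at this depth. Isg15 had a UMI in 49.7% and 58.3% of thinned macrophage-like cells, with 2.15 and 2.72 UMIs in each cell that had any. Ifit1 had a UMI in 12.6% and 16.3% of cells, with 1.455 and 1.495 UMIs in those. Ifit3 had one in 25.05% and 32.46%. At such low levels most cells with a UMI of Ifit1 can hold little more than 1, so the number in these cells says little on how Ifit1 differed. Oas3 had a UMI in 11.9% and 12.3% of cells.

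**Figure D3:**
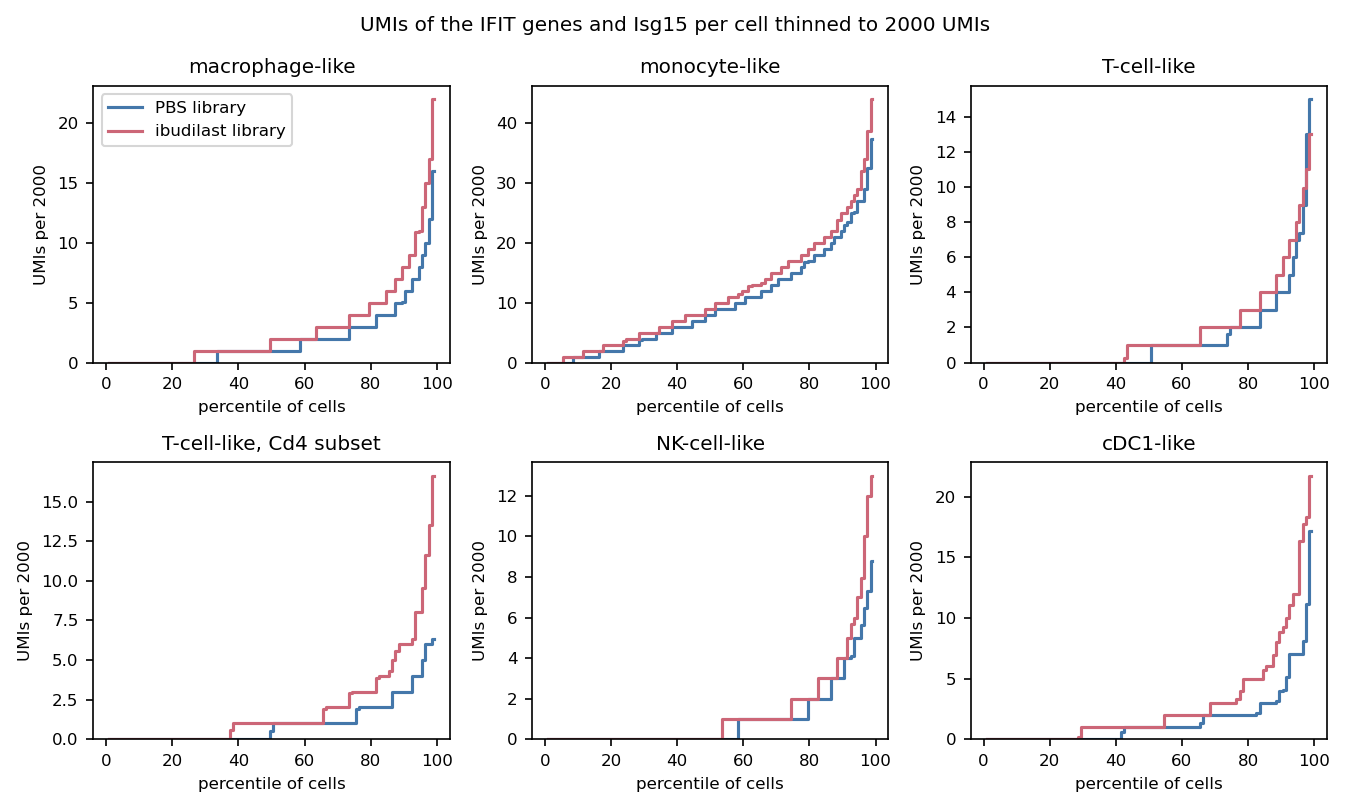
UMIs of Isg15 and the 4 IFIT genes per cell thinned to 2000 UMIs, against the percentile of cells in each library, for 5 classes and the Cd4 subset of T-cell-like cells; blue is PBS and red ibudilast. In macrophage-like cells the red curve is at or above the blue one over the plotted percentiles (1 to 99), with a median of 2 against 1 UMI, although the single highest cell, beyond them, held 74 (blue) and 43 (red) UMIs; in T-cell-like cells the curves cross near the top.

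Macrophage-like cells of the ibudilast library also carried more RNA of other types. The monocyte panel was at 667.3 and 1279 CPM, the T-cell panel at 138.7 and 300.5 CPM, and 12 cytotoxic effector genes at 709.5 and 1662 CPM. The non-immune panel was at 48.08 and 119.1 CPM. Haemoglobin, without cells holding 20 or more of its UMIs, was at 6.515 and 66.36 CPM. Other classes shared this, with 8.584 and 69.35 CPM in T-cell-like and 3.907 and 50.89 CPM in cDC1-like cells. The part of such RNA in the ratios was not tested. All 8 monocyte markers were detected in macrophage-like cells of both libraries. To set cells of more similar monocyte-panel content side by side, the macrophage-like class was split by monocyte-panel UMIs per 2000. The groups were cells with 0, with 1 or 2, and with 3 or more, a split chosen after the data were seen. The group with 0 made up 53.0% and 31.8% of cells, and the group with 3 or more 19.51% and 39.98%.

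Within each of these groups Isg15 and the IFIT genes stayed higher in the ibudilast library. They were at 820.3 and 1024 CPM (1.248, interval 1.22 to 1.28) in cells with no monocyte-panel UMI. In cells with 1 or 2 they were at 935.3 and 1060 CPM (1.13), and in cells with 3 or more at 1441 and 1736 CPM (1.20). The sum of all members was close to equal in each group, at ratios of 1.02, 1.02 and 1.03, and the p200 sum was at 0.890, 0.939 and 0.968. With the groups weighted alike the ratio of all members went from 1.10 to 1.03, while that of the 5 genes went from 1.35 to 1.20. Cells in the same group thus held nearly equal sums of all members, but not of Isg15 and the IFIT genes. The group with 3 or more has no upper limit, and monocyte-panel levels within the groups were not compared between the libraries.

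A split by Cxcl9, a chemokine that interferon-gamma induces, was also chosen after the data were seen and gave ratios of 1.40 for Isg15 and the IFIT genes in thinned cells without a Cxcl9 UMI and 1.33 in cells with one. Across the 12 clusters that held macrophage-like cells of both libraries in number, out of 28 found without the members, 11 had a ratio above 1 and 9 an interval above 1. The ratios ran from 0.850 (0.633 to 1.13) in cluster 23, led by haemoglobin genes, to 1.46 (1.38 to 1.54) in cluster 0, whose leading genes include Foxp3 and Icos of T cells. Clusters 1 (led by Ccl8, 1.36), 4 (Ntpcr, 1.20) and 5 (Gpnmb, 1.44) consisted of macrophage-like cells for the most part and had intervals above 1. Clusters 14 (led by Mmp12 and Arg1, 1.025, interval 0.9065 to 1.155) and 15 (led by Lgals3, 1.112, interval 0.9085 to 1.357) were macrophage-like for the most part as well, but their intervals crossed 1. With clusters weighted alike the ratio was 1.22. Of the macrophage-like cells 280 and 270 (6.21% and 10.5%) carried a lymphoid panel at 40% or more of their best panel. Leaving these mixed barcodes out, by a limit chosen after the results were seen from 5 that were compared by cell numbers, gave 1.39.

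**Figure D4:**
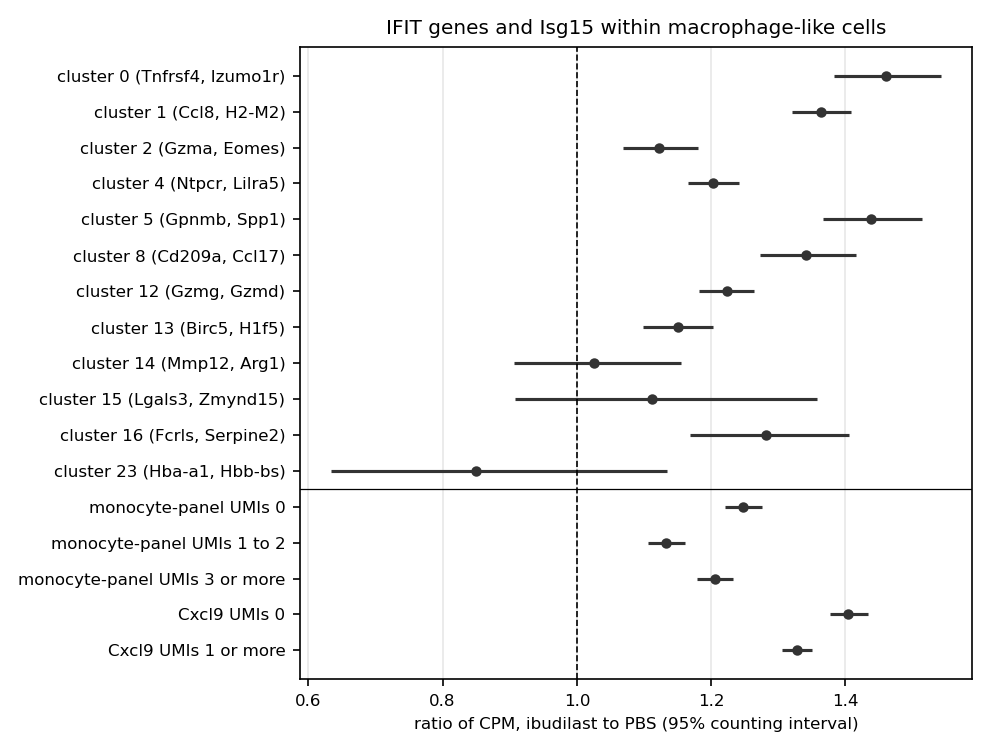
Ratio of CPM (ibudilast to PBS) of Isg15 and the 4 IFIT genes within macrophage-like cells, by cluster with its leading genes (top) and by UMIs of the monocyte panel or of Cxcl9 (bottom), with bars for 95% counting intervals; the dashed line marks 1. Of the 12 clusters only cluster 23 (0.850) lies below 1, and its interval crosses 1.

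Monocyte-like cells (591 and 821) held Isg15 and the IFIT genes at 4768 and 5610 CPM, well above macrophage-like cells, and the libraries differed less there (ratio 1.18, interval 1.16 to 1.20). Isg15 was at 2020 and 2631 CPM, a ratio of 1.30 (1.27 to 1.34), and was the single member above the threshold. By count 1 of 42 members was higher and 0 lower, where 14.8% of 9871 genes were higher and 14.1% lower. Ifit1 was at 593.3 and 639.3 CPM (1.08) and Ifit3 at 1163 and 1270 CPM (1.09), both closer to 1 than in macrophage-like cells. Rsad2 was at 1396 and 1206 CPM (0.864) and Usp18 at 386.9 and 386.5 CPM (0.999). The 7 p200 genes summed to 6144 and 5615 CPM (0.914, interval 0.8995 to 0.929), with Ifi203 at 1095 and 953.6 CPM.

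The list as a whole therefore hardly differed in monocyte-like cells. Its sum had a ratio of 1.03 (1.03 to 1.04), and without its 3 members with the most UMIs the ratio was 0.983. Ifi27l2a was at 3927 and 4449 CPM (1.13), Bst2 at 1379 and 1417 CPM, Oasl2 at 520.7 and 553.5 CPM and Stat2 at 233.5 and 247.0 CPM. The difference in Isg15 and the IFIT genes was spread widely over these cells. Thinned cells held a mean of 9.87 and 11.5 UMIs of them, and the top 10% gave 27.0% of the difference while holding 29.0% of the PBS library's UMIs. Cells below the median gave 27.9%. In cluster 11 (led by Chil3, 96.45% monocyte-like, 202 and 164 cells) all members had a ratio of 1.13. Isg15 with the IFIT genes had 1.35 there. In cluster 10 (led by Slfn4, 65.17% monocyte-like, 456 and 678 cells) these ratios were 1.03 and 1.14. The difference between the clusters was not tested. Haemoglobin stood at 2103 and 1920 CPM in the monocyte-like class, nearly all of it in 2 cells of each library.

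In T-cell-like cells (699 and 881) few members differed. Ifit2 was at 59.25 and 83.67 CPM, a ratio of 1.41 (1.254 to 1.59), and Trim30c, read in 25 and 55 UMIs, had 1.69 (1.03 to 2.82). Ifi44 was at 24.50 and 17.60 CPM (0.718). These were the 2 higher and the 1 lower of 42 members, where 8.95% of 11295 genes were higher and 10.8% lower, and 5 were higher with classes taken from clusters. Isg15 was at 314.7 and 366.7 CPM (1.17), Ifit1 at 109.4 and 123.1 CPM (1.13) and Ifit3 at 155.6 and 187.0 CPM (1.20). Usp18 was at 98.57 and 117.1 CPM, Oasl2 at 61.05 and 71.58 CPM, Bst2 at 598.1 and 637.2 CPM and Rsad2 at 86.39 and 79.85 CPM.

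Part of the T-cell-like class carried macrophage RNA, and the difference was smaller without those barcodes. Of this class 236 and 255 barcodes (33.8% and 28.9%) carried a non-lymphoid panel at 40% or more of the T-cell panel. Leaving them out took the ratio of Isg15 and the IFIT genes from 1.18 (1.14 to 1.23) to 1.06 (1.01 to 1.12), and the counts to 1 higher and 4 lower. In thinned cells the share without a UMI was 50.36% and 43.04%, and unthinned 16.3% and 13.3%. The top 10% of cells gave 9.41% of the difference although they held 57.6% of the PBS library's UMIs. The difference thus lay in cells of middling level, and the curves of the libraries met at the top.

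The T-cell-like class was uneven inside. In the 169 and 115 cells with Cd4 and without Foxp3 or Cd8, Isg15 and the IFIT genes were at 443.8 and 931.2 CPM, a ratio of 2.10 (1.904 to 2.31). In cells with Cd8a or Cd8b1 the ratio was 1.15 (1.09 to 1.22), and in Foxp3 cells with other regulatory markers 1.18 (1.07 to 1.30). In cells thinned to 2000 UMIs the ratios of the means were 2.02 in the Cd4, 1.10 in the Cd8 and 0.959 in the Foxp3 cells. The direction in the Foxp3 cells thus depended on the setting. In the Cd8 cells 6 of 42 members were higher and 0 lower, where 14.5% and 10.4% of genes were, and in the Foxp3 cells 5 and 2 of 40, where 22.5% and 15.9% were. Attention was drawn to the Cd4 subset by its values, and the difference between the subsets was not tested. In it Ifit2 was at 48.48 and 144.3 CPM, Ifit3 at 75.21 and 188.7 CPM, Ifit1 at 78.32 and 159.4 CPM and Isg15 at 218.2 and 401.0 CPM. Usp18 (1.95) and Oasl2 (1.92) were higher as well, so genes outside the IFIT group shared in the difference here. The monocyte panel stood at 668.8 and 1098 CPM in this subset, the macrophage panel at 6215 and 6007 CPM and haemoglobin at 3.73 and 91.5 CPM, and their part in the result was not tested.

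By count 28 of 40 members were higher in the Cd4 subset and 0 lower, where 19.2% of 8602 genes were higher and 17.5% lower. With the mixed barcodes left out, which removed 62 and 36 of these cells, 14 were higher and 2 lower, the ratio of all members went from 1.17 to 1.10, and that of Isg15 and the IFIT genes was 2.04. Thinned cells of the subset above the PBS 95th percentile of 4 UMIs made up 4.76% (2.08 to 9.17) and 14.2% (8.32 to 22.0). The top 10% of cells gave 53.6% of the difference, against 44.9% of the UMIs in the PBS library. Ifi27l2a was at 7528 and 7913 CPM, the bulk of the members' sum in this subset.

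NK-cell-like cells (185 and 383) had more Ifit2, Ifit3 and Rsad2 in the ibudilast library. Ifit2 was read in 66 and 225 UMIs, at 42.77 and 102.3 CPM (2.39, interval 1.81 to 3.20). Ifit3 was at 116.6 and 185.0 CPM (1.59) and Rsad2 at 67.39 and 106.8 CPM (1.58). Isg15 was at 204.8 and 276.3 CPM (1.35) and Ifit1 at 79.06 and 103.6 CPM (1.31), so all 5 genes of the combination were above the threshold. Usp18 (0.984), Bst2 (1.03) and Stat2 (1.22) were not, and Oasl2 was at 47.95 and 58.17 CPM. All 3 PARP and DTX3L genes were higher (ratios of 1.28 to 1.30), and Trim30a, a brake on Toll-like receptor signalling, was at 206.7 and 296.3 CPM.

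By count 16 of 40 members were higher and 2 lower in this class, where 22.4% of 8743 genes were higher and 19.2% lower, but 7 were higher when the marker gate was read on thinned cells and 10 when each cell was weighted alike. The lower ones were Ifi44 (100.4 and 76.35 CPM) and Oas2, the latter from 12 and 13 UMIs. Isg15 and the IFIT genes together were at 459.4 and 693.1 CPM, a ratio of 1.51 (1.38 to 1.65). In thinned cells 58.4% and 53.8% had none, and unthinned 31.4% and 34.5%. The top 10% gave 60.5% of the difference and held 57.8% of the PBS library's UMIs, but gave 74.7% when cells were thinned to 1000 UMIs and 91.3% with mixed barcodes left out, so how widely the difference was spread depended on the setting. Other measures moved with the library here: median UMIs were 6922 and 4708, 12 cell-cycle genes stood at 759.5 and 444.0 CPM, 16 dissociation-stress genes at 15920 and 20350 CPM, and haemoglobin at 16.20 and 568.5 CPM (118.4 CPM without 2 cells). Their part in the result was not tested. Without the 76 and 121 mixed barcodes the ratio was 1.73.

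Among dendritic cells the 2 conventional types had ratios on opposite sides of 1. In cDC1-like cells, which cross-present tumour antigen (101 and 144 cells), Ifit1 was at 25.71 and 51.68 CPM (2.01, interval 1.45 to 2.82). Ifit3 was at 55.78 and 111.3 CPM (2.00) and Isg15 at 475.8 and 775.2 CPM (1.63, interval 1.51 to 1.76). Single members of other groups were higher as well: Usp18 had a ratio of 1.43, Oasl2 1.56, Rsad2 1.39 and Ifi203 1.60. As groups the OAS and p200 genes differed less, with ratios of 1.095 and 1.175 for their mean sums in thinned cells. Bst2 (0.947) and Ifi27l2a (0.961) were not higher, and Stat2 was at 131.0 and 156.6 CPM. By count 21 of 41 members were higher and 1, Cmpk2, was lower, where 20.9% of 8821 genes were higher and 13.1% lower.

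In thinned cDC1-like cells the median was 1 UMI of Isg15 and the IFIT genes in both libraries, and the 75th percentile was 2 and 3. Cells below the median gave 11.1% of the difference, so it lay mostly above the median. Thinned cells without a UMI of Isg15 or an IFIT gene made up 42% and 29.4%, and unthinned 2.97% and 6.94%. In turn 4% (1.10 to 9.93) and 11.9% (7.08 to 18.4) were above the PBS 95th percentile of 7 UMIs. The top 10% gave 36.0% of the difference, less than the 57.9% of UMIs they held in the PBS library, and 15.6% with mixed barcodes left out. That 57.9% includes 1 cell with 37 UMIs, the highest of the 100 thinned PBS cells. With classes taken from clusters 8 members were higher. With the gate read on thinned cells 5 members were lower.

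In cDC2-like cells (125 and 101) Ifit1 and Rsad2 were lower in the ibudilast library, and Isg15 was nearer to the same level. Ifit1 was at 216.6 and 138.3 CPM (0.639, interval 0.534 to 0.760) and Rsad2 at 213.6 and 123.2 CPM (0.577, interval 0.479 to 0.692). Isg15 was at 683.2 and 610.6 CPM (0.894). By count 1 of 41 members (Parp9) was higher and 9 lower, where 18.0% of 8242 genes were higher and 16.7% lower. Isg15 and the IFIT genes together had a ratio of 0.849 (0.801 to 0.9), but 1.26 when the gate was read on cells thinned to 2000 UMIs, so the direction in this class rests on which cells are counted in it. The share of its cells whose second panel came near to the first differed between the libraries, with 56.0% and 29.7% having a runner-up above the midpoint of the best score. The macrophage panel stood at 1843 and 841.8 CPM in this class and the monocyte panel at 2207 and 2440 CPM, and their part in the result was not tested.

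The remaining classes were small. In cells between monocyte and macrophage 1 of 42 was higher and 5 lower (background 21.2% and 11.5%), and in microglia-like cells 13 and 5 (22.6% and 24.0%). In B-cell-like cells 9 of 33 were higher and 6 lower (18.1% and 34.8%). Migratory dendritic-cell-like cells had 6 higher and 5 lower of 40 (19.9% and 18.4%), and plasmacytoid dendritic-cell-like cells 13 and 8 of 39 (20.8% and 24.3%). Isg15 and the IFIT genes had ratios of 1.24 (1.17 to 1.32) in migratory and 1.24 (1.12 to 1.37) in plasmacytoid dendritic-cell-like cells, of 1.11 (0.991 to 1.24) in microglia-like and 1.11 (0.886 to 1.38) in B-cell-like cells. The last pair could not be told from 1 at this depth. The plasmacytoid ratio was 1.81 with classes taken from clusters and 2.40 with the gate read on thinned cells. In the 48 and 36 neutrophil-like cells Rsad2 was at 9332 and 5571 CPM and Isg15 at 5504 and 5759 CPM, so members differed in direction even in the class with the highest level. Both sums of that class were lower in the ibudilast library. All members were at 40620 and 34160 CPM, and Isg15 with the IFIT genes at 12960 and 11670 CPM. The 523 and 574 cells whose best 2 panels scored alike had a ratio of 1.37 for the 5 genes.

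Transcripts of type I interferon itself were rare. Ifnb1 was the ligand read most, with 102 UMIs in 38 cells of the PBS library and 120 UMIs in 19 cells of the ibudilast library. In the ibudilast library 49 of these came from 1 macrophage-like cell and 41 from 1 T-cell-like cell, which left 30 UMIs elsewhere, against 74 outside the top 2 cells of the PBS library. The Ifnb1 ratio of 2.24 in macrophage-like cells therefore rests on 1 cell. Ifng, which encodes interferon-gamma, stood at 64.60 and 136.8 CPM when all kept cells were pooled (2.12), at 501.0 and 603.3 CPM in T-cell-like cells (1.20) and at 254.0 and 509.0 CPM in NK-cell-like cells (2.00). In macrophage-like cells Ifng was at 9.171 and 34.97 CPM (3.81).

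The receptor and signalling genes differed little in macrophage-like cells. Of 9 receptor and kinase genes and 11 sensing adaptors tested there, 0 were past either threshold. Ifnar1 was at 74.83 and 76.40 CPM (1.02) and Ifnar2 at 182.1 and 187.5 CPM (1.03), while Ifngr1, a chain of the interferon-gamma receptor, was at 126.5 and 151.8 CPM (1.20). Irf7, the factor that interferon raises to amplify its own production, was at 508.4 and 585.8 CPM (1.15). Irf5, another factor of the same family, had a ratio of 0.872. In cDC1-like cells Irf7 (1.27) was above the threshold, and in NK-cell-like cells Irf7 was at 223.6 and 278.6 CPM.

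Of 47 other interferon-stimulated genes that are not members, 3 were higher and 3 lower in macrophage-like cells, where 17.0% and 5.96% of all genes were. The higher ones were the IFITM genes that block viral entry, with Ifitm1 at 51.14 and 105.9 CPM (2.07), Ifitm2 at 330.8 and 465.2 CPM and Ifitm3 at 1978 and 2495 CPM (1.26). Lap3 (0.596) and Ccl12, a chemokine for monocytes (0.716), had the lowest ratios. Of 21 genes that answer chiefly to interferon-gamma, 6 had a ratio above 1. The median log2 ratio of the 21 was -0.151, beside 0.0499 over all genes tested. By count 2 were higher and 4 lower, where 17.0% and 5.96% of all genes were. The higher ones were Tgtp1, at 7.26 and 11.1 CPM (1.53, interval 1.33 to 1.76), and Tgtp2, at 22.9 and 29.4 CPM (1.29). Cd74, the invariant chain of MHC class II, was at 17310 and 13550 CPM (0.783), Gbp2b at 60.95 and 35.69 CPM (0.586), and H2-Ab1, at 11510 and 10720 CPM (0.932), was past neither threshold. In macrophage-like cells the targets of interferon-gamma thus held genes of both directions, with most ratios not above 1. Monocyte-like cells differed from this, with 17 of 19 such genes above 1. The median log2 ratio of the 19 was 0.15, beside 0.00434 over all genes tested. By count 1 was higher and 1 lower there, where 14.8% and 14.1% of all genes were. In cells between monocyte and macrophage 6 of 20 were above 1. The difference between the lists was not tested.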

How the data were processed

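Gene expression was measured by 10x 3' single-cell RNA-seq in 1 PBS and 1 ibudilast library. The authors deposited UMI counts per gene and barcode, which the file headers credit to Cell Ranger 6.1.1, on mm10 per the submitters' processing notes; they are not normalized. Barcodes with fewer than 300 genes, fewer than 500 UMIs or a mitochondrial share of 10% or more were removed. The Scrublet threshold marked 0 doublets, so in both libraries the 6% scoring highest were removed (489 and 425). A panel needed 3 markers with a UMI, and a runner-up at 75% of the best score put a cell between classes. Counts were summed per class and scaled to CPM. Ratios have exact conditional binomial intervals and levels exact Poisson intervals at 95%, for counting error only. Log2 ratios add 0.5 UMI. The script was tested on simulated data. Tools were Python 3.11.15, scanpy 1.11.5, numpy 2.4.6 and scipy 1.17.1.

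Members and lists were chosen with earlier results of these data known. Named by rule were, in classes with at least 300 cells in each library, the 4 highest and the 4 lowest ratios with an interval beyond a 25% difference and at least 100 UMIs, and in any class Isg15, Ifit1, Ifit3, Rsad2, Usp18, Oasl2, Bst2, Ifi27l2a, Stat2 and Irf7. Of each pathway list the rule took the 3 genes with the most UMIs and the 2 highest and 2 lowest ratios. Other members were named after their values were seen. A gene of the pathway lists is not reported here. Positions are from GENCODE M21 and promoters from RefSeq.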

Additional observations from a re-analysis of the deposited data

Results flagged for a closer look

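The ratio of Isg15 and the IFIT genes in cDC2-like cells was 0.849, below 1, while it was above 1 in the other 10 classes with at least 50 cells in each library. The difference between the classes was not tested, and the value was 1.26 with the gate read on thinned cells.

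The summed members had a ratio of 0.98 in cells between monocyte and macrophage and of 0.961 in cDC2-like cells, both below 1, while 8 of the 11 classes were above 1. The third class below 1 was the B-cell-like one, at 5565 and 5387 CPM (0.968, interval 0.909 to 1.03), whose ratio ran from 0.729 to 1.08 over the alternatives. These differences were not tested either, and with the gate on thinned cells the ratios in intermediate and cDC2-like cells were both 1.06.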

How the results depend on the processing

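No paired analysis was possible because each group is 1 library. For the same reason no library could be left out. The ratio of Isg15 and the IFIT genes stayed above 1 under every alternative run in macrophage-like (1.20 to 1.41), monocyte-like (1.15 to 1.21), T-cell-like (1.06 to 1.32), NK-cell-like (1.22 to 1.73), cDC1-like (1.41 to 1.71) and Cd4 T-cell-like cells (1.80 to 2.11), but in cDC2-like cells it ran from 0.849 to 1.26. In B-cell-like cells it ran from 0.498 to 1.46. Why values moved was not tested. Member counts under the alternatives have no share of all genes beside them, so a changed count cannot be read as particular to the members. Depth limits the small classes most, where a few UMIs decide whether a member is counted.

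With the gate read on thinned cells the summed members had ratios of 1.12 in macrophage-like, 1.05 in monocyte-like, 1.11 in T-cell-like, 1.09 in NK-cell-like, 1.1 in cDC1-like and 1.2 in Cd4 cells, and 1.06 in both intermediate and cDC2-like cells, which turned those directions. Isg15 and the IFIT genes were then at 1.36 in macrophage-like, 1.21 in monocyte-like, 1.22 in NK-cell-like, 1.47 in cDC1-like and 1.26 in cDC2-like cells, the last also turned. Members lower were 2 in the T-cell-like, 4 in the NK-cell-like and 5 in the cDC1-like class, and members higher 7 in NK-cell-like cells.

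With classes from clusters the summed members were at 1.14 in macrophage-like, 1.05 in monocyte-like, 1.16 in NK-cell-like, 1.11 in cDC1-like and 1.12 in Cd4 cells. Isg15 and the IFIT genes were at 1.41 in macrophage-like, 1.32 in T-cell-like, 1.41 in cDC1-like and 1.8 in Cd4 cells. Members higher were 10 in macrophage-like, 5 in T-cell-like and 8 in cDC1-like cells, and 0 were lower in cDC1-like cells.

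With each cell weighted alike the summed members were at 1.1 in macrophage-like, 1.02 in monocyte-like, 1.11 in T-cell-like, 1.15 in NK-cell-like and 1.12 in cDC1-like cells, and Isg15 with the IFIT genes at 1.15 in monocyte-like, 1.36 in NK-cell-like and 1.56 in cDC1-like cells. Members higher were then 4 (T-cell-like) and 10 (NK-cell-like), and lower 1 in macrophage-like, 1 in monocyte-like, 0 in T-cell-like and 1 in Cd4 cells.

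With doublets kept the summed members were at 1.11 in macrophage-like and 1.1 in T-cell-like cells, Isg15 with the IFIT genes at 1.24 in T-cell-like cells, and members lower were 1 in NK-cell-like and 0 in cDC1-like cells. The stricter cell filter gave 1.1 for the sum in macrophage-like cells and 0 lower in cDC1-like cells. Without the 3 members with the most UMIs the sums were at 1.07 in macrophage-like, 1.05 in T-cell-like, 1.31 in cDC1-like and 1.44 in Cd4 cells, and at 0.983 in monocyte-like cells, which turned the direction. A minimum of 100 UMIs gave 1 higher in T-cell-like, 1 lower in NK-cell-like and 0 lower in cDC1-like cells, and a minimum of 1 UMI gave 2 lower in cDC1-like cells.

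Some alternatives were chosen after seeing the data. With mixed lymphoid and non-lymphoid barcodes left out the summed members were at 1.11 in macrophage-like, 1.28 in NK-cell-like and 1.1 in Cd4 cells, and Isg15 with the IFIT genes at 1.39 (macrophage-like), 1.06 (T-cell-like) and 1.73 (NK-cell-like). Members higher were 1 in T-cell-like and 14 in Cd4 cells, and lower 4 in T-cell-like, 0 in cDC1-like and 2 in Cd4 cells. The top 10% of cells then gave -252% of the difference in the T-cell-like class, where that difference was small, 91.3% in NK-cell-like and 15.6% in cDC1-like cells, and 23.1% of Cd4 cells of the ibudilast library were above the PBS percentile. With monocyte-panel groups weighted alike the macrophage-like ratios were 1.03 for all members and 1.2 for Isg15 with the IFIT genes. Without cells with 20 or more haemoglobin UMIs 0 members were lower in cDC1-like cells.

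With the 90th percentile of PBS as the limit, 15.4% of macrophage-like, 11.9% of monocyte-like, 11.7% of T-cell-like, 11.9% of NK-cell-like and 21.7% of cDC1-like cells of the ibudilast library were above it. Thinned to 1000 UMIs the share was 3.98% in T-cell-like and 20.8% in cDC1-like cells, and to 4000 UMIs 7.48% in T-cell-like cells. At 1000 UMIs the top 10% gave -12.7% (T-cell-like) and 74.7% (NK-cell-like) of the difference.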

Other observations

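The barcodes left out for a mitochondrial share of 10% or more numbered 801 (PBS) and 1324 (ibudilast) among those with enough genes and UMIs. In them the 42 members summed to 7638 and 7555 CPM, a ratio of 0.989 (0.966 to 1.01). Isg15 and the IFIT genes were at 954.5 and 996.1 CPM, a ratio of 1.04 (0.977 to 1.11), below the 1.44 of all kept cells.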
